A study of Mus musculus with 9 samples.

Results

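The genes described here are 9 mouse genes of somatic homologous recombination and of the Fanconi anaemia pathway: Brca1, Brca2, Palb2, Rad52, Rdm1, Fanca, Fancb, Fancd2 and Fanci. They were chosen by name and role, with no threshold on their values but with earlier results of these data known, out of 46078 gene identifiers with read counts. All 9 had a row in each of the count tables, and all 9 passed the filter on low counts in all 3 comparisons. The samples were EGFP-SSCs, a cultured line of mouse spermatogonial stem cells (SSCs) of WT genotype that carries a green fluorescent protein. At 0 h the line was in its usual culture on mitomycin C-treated mouse embryonic fibroblasts, with GDNF, epidermal and basic fibroblast growth factors. For 24 h or 48 h it was mixed in equal parts with somatic cells from the testes of busulfan-treated mice aged 3 to 7 days. The differentiation medium held KSR, BMP-4/7, retinoic acid, activin A, testosterone, FSH and BPE, and EGFP-positive cells were then collected by flow cytometry. Each of the 3 time points had 3 biological replicates, so a group is 3 samplings of a single line, and the p-values measure the spread among them.

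Homologous recombination mends a broken chromosome by copying the intact sister chromatid. BRCA1 favours the trimming of the broken ends into single strands, PALB2 links BRCA1 to BRCA2, BRCA2 acts on the single strands, and RAD52 anneals complementary strands. The Fanconi pathway acts on crosslinks between the strands: a core complex with FANCA and FANCB attaches ubiquitin to FANCD2 and FANCI, and the unhooked crosslink is then completed with help of the recombination proteins. Spermatogonia divide many times before meiosis, and loss of Fanconi genes in mice is known for a poor supply of germ cells.

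The libraries held 16825251 to 22201892 counts. Levels are given as CPM, the counts of a gene scaled to a common library size after TMM normalisation. A gene was called changed where the quasi-likelihood test of edgeR gave an adjusted p of up to 0.05 after Benjamini and Hochberg, over all genes tested. Germ cell genes marked all 3 groups, with mean levels of Ddx4 of 357 CPM at 0 h, 359 CPM at 24 h and 382 CPM at 48 h. The summed level of the germ cell genes, Ddx4 among them, was 1077 to 2181 CPM at 0 h, 1311 to 1561 CPM at 24 h and 1402 to 1676 CPM at 48 h. The summed level of 5 genes of undifferentiated spermatogonia was 1620 to 1880 CPM at 0 h, 359 to 388 CPM at 24 h and 263 to 293 CPM at 48 h. The summed level of 4 genes of differentiating spermatogonia was 71.1 to 91.3, 1699 to 1762 and 1016 to 1065 CPM at the same times. Genes of somatic cells were also present: the sum of 5 stromal and fibroblast genes was 232 to 319 CPM at 0 h, 1779 to 2063 CPM at 24 h and 2330 to 2585 CPM at 48 h. In the same order of times the sum of 5 myoid genes was 13.2 to 15.4, 144 to 204 and 256 to 315 CPM, that of 6 Sertoli genes 15.1 to 19.2, 52.0 to 83.0 and 63.3 to 68.6 CPM, and that of 5 Leydig genes 4.38 to 6.79, 24.6 to 38.5 and 25.2 to 32.5 CPM, with Hsd3b1 and Insl3 at 0 in the 0 h libraries. The sums of 4 endothelial genes (43.3 to 47.2, 14.4 to 18.7 and 12.2 to 12.8 CPM) and 4 macrophage genes (15.5 to 17.3, 5.72 to 9.52 and 5.49 to 7.49 CPM) were lower after 0 h. The 3 libraries of 0 h differed more from each other than those of 24 h or 48 h, with a chi-square of counts per degree of freedom of 35.5 to 81.4 between pairs, against 7.13 to 26.0.

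At 24 h against 0 h, Fanca was higher and Rdm1 and Fancb were lower, which makes 3 of the 9 genes called, beside 25.5% of all genes tested. At 48 h against 0 h, Rad52 and Fanca were higher and Rdm1 and Fancb were lower, 4 of 9, beside 31.6% of all genes. Between 24 h and 48 h none of the 9 was called by edgeR, beside 21.3% of all genes, with 2 of them at an unadjusted p under 0.05 and 1 called by DESeq2. The falls were larger than the rises. Fancb was 4.37-fold and Rdm1 2.85-fold lower at 24 h, while Fanca was 1.37-fold higher. The median log2 fold change of the 9 genes was 0.21 at 24 h and 0.39 at 48 h against 0 h, and the median of all genes tested was 0.01 and 0.02. Of the 9, Brca2 varied most within groups and Fancd2 least, with SDs of 0.98 and 0.12 in log2 CPM. In bulk RNA of sorted cells, fewer cells of a type and less RNA per cell cannot be told apart.

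**Figure D1:**
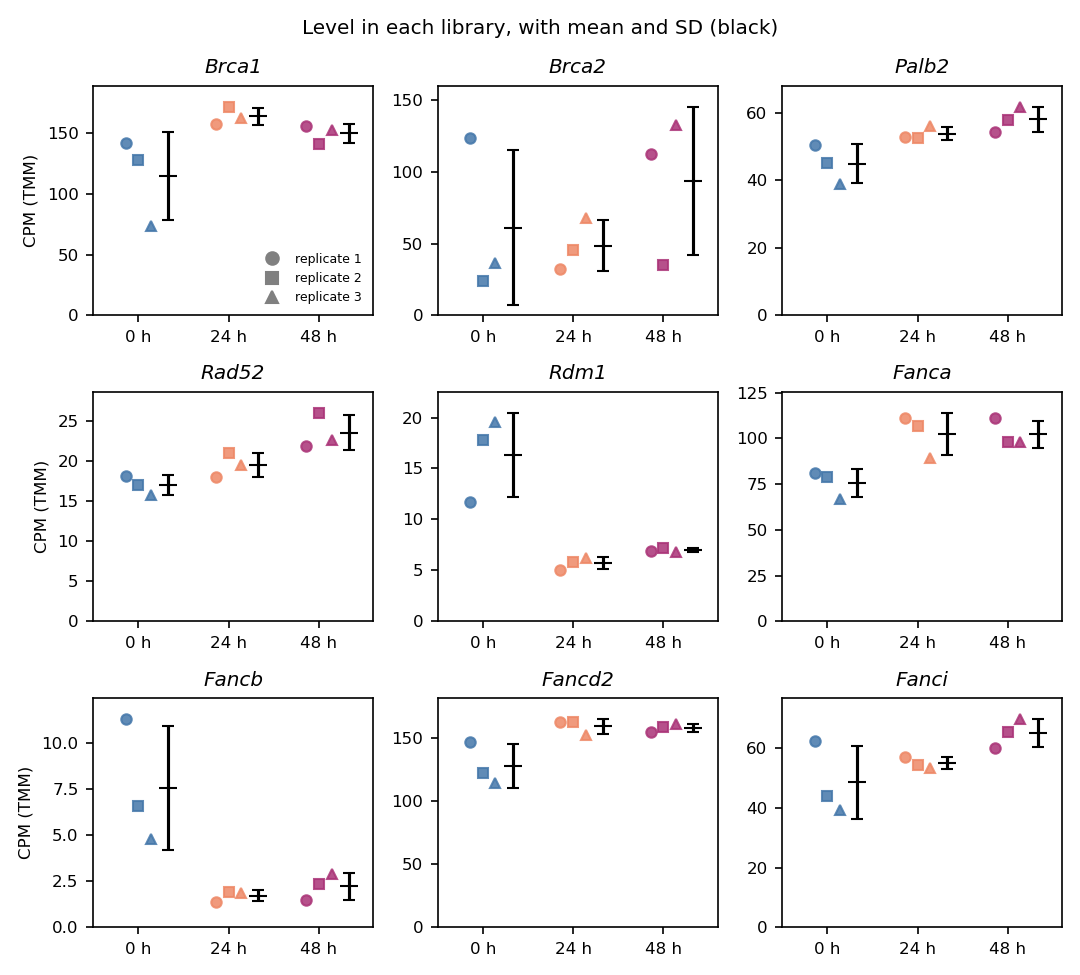
Level of each gene in CPM (y axis, from 0) in the 9 libraries by time of co-culture (x axis), with the mean and SD of 3 replicates in black. Rdm1 and Fancb at 0 h lie above all libraries of 24 h and 48 h, and Brca2 ranges from 24.1 to 133 CPM with no order by time.

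The separation of the libraries was counted beside the test. At 24 h the 3 libraries of Brca1, Palb2, Fanca and Fancd2 all lay above those of 0 h, and those of Rdm1 and Fancb all lay below. Such a gap was found for 43.4% of all genes at 24 h, with 21.2% above and 22.2% below. At 48 h the genes apart from 0 h were Palb2, Rad52, Fanca and Fancd2 above and Rdm1 and Fancb below, beside 48.3% of all genes, 22.9% above and 25.4% below. From 24 h to 48 h the libraries of Rad52, Rdm1 and Fanci all lay above and those of Brca1 all lay below, beside 39.6% of all genes, 18.6% above and 21% below.

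**Figure D2:**
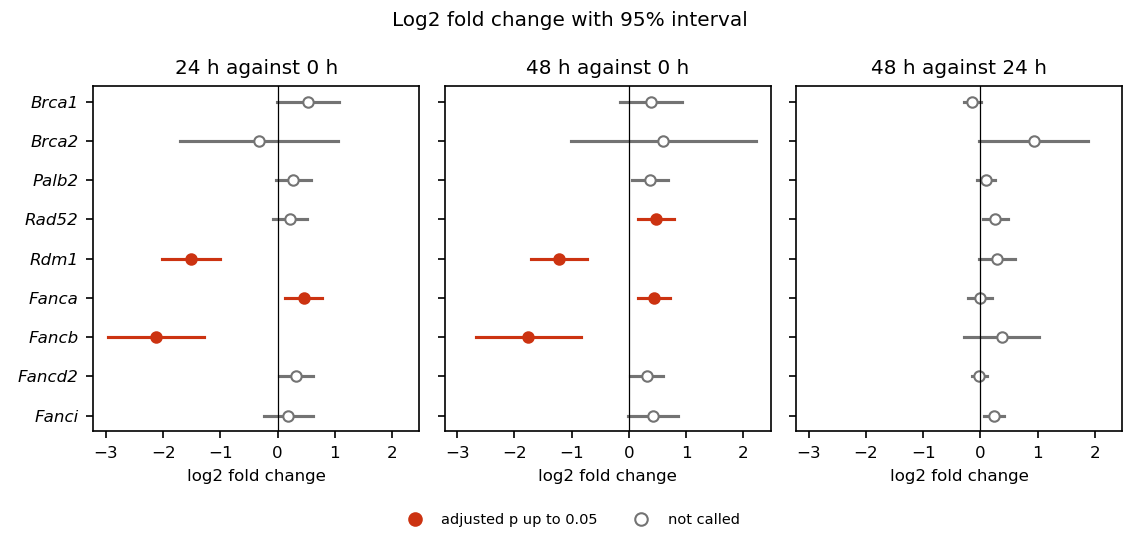
Log2 fold change (x axis) of each gene with its 95% interval in the 3 comparisons, with filled red points for an adjusted p of up to 0.05. Rdm1 and Fancb are the red points left of 0 in both comparisons with 0 h, and no point is red in the comparison of 48 h with 24 h.

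Promoters are shown for the called genes other than Rdm1 and for Brca2, to set the sequence next to the genes that moved apart. RefSeq (GRCm38.p6) gave a promoter window of 300 bases for 7 of the 9 genes, all but Rdm1 and Fancd2. The motifs searched on both strands were an E2F site (TTTCCCGC, TTTCGCGC, TTTGCCGC or TTTGGCGC), a CHR element (TTTGAA) and a CCAAT box (CCAAT). E2F sites and CHR elements are known from genes of the cell cycle, and the CCAAT box binds the factor NF-Y. The 250 bases before the start site are printed 5′ to 3′ on the strand of the gene, with a match to an E2F site or a CCAAT box, in either orientation, in capitals.
Fancb, chrX:164980342-164980591, plus strand: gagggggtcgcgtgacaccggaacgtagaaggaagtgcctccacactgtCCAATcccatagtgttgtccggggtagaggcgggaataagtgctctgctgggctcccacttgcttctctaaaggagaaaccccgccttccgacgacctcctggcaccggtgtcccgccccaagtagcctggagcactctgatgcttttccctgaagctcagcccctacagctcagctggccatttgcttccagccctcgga
Fanca, chr8:123318577-123318826, minus strand: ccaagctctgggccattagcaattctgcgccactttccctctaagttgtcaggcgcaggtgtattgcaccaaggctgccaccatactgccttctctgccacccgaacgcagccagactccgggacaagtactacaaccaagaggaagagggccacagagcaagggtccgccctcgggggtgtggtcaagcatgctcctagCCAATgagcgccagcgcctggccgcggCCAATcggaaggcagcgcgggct
Rad52, chr6:119902448-119902697, plus strand: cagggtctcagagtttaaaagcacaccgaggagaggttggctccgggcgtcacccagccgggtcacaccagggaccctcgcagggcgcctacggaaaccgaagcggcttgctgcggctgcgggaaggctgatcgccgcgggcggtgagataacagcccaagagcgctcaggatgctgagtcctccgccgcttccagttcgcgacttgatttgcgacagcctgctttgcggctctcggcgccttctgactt
Brca2, chr5:150522371-150522620, plus strand: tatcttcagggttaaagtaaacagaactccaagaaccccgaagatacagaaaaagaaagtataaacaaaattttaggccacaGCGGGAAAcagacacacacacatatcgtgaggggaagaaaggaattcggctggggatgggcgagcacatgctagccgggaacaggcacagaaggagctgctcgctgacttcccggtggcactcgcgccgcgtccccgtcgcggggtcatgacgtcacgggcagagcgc

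The E2F letters were found in Brca2 alone among the 7, as GCGGGAAA on the strand shown, and in 2.3% of 32851 promoters of the same length. A CCAAT box was found in Brca1, Palb2, Fancb and, at 2 places, Fanca, and in 37.4% of all promoters. The CHR letters were in none of the 7 and in 17.9% of all promoters. Rad52 and Fanci held none of the 3 motifs. Among the called genes, Fanca and Fancb held a CCAAT box and Rad52 did not, and Rdm1 had no window to search. Whether these motifs bear on the changes was not tested.

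Brca1 (ENSMUSG00000017146) lies on chromosome 11 (GRCm38, 101488764 to 101551955, minus strand). Its level was 142, 128 and 73.4 CPM in the 0 h libraries, 158, 172 and 162 CPM at 24 h, and 156, 141 and 152 CPM at 48 h. The 3 libraries of 24 h stood above those of 0 h and of 48 h, and the third library of 0 h was far below the rest. The log2 fold change was 0.53 at 24 h (SE 0.23, adjusted p = 0.14) and 0.39 at 48 h (SE 0.23, adjusted p = 0.253), so neither difference passed the test. The result at 24 h turned on the 0 h libraries: the difference passed without 0 h replicate 1 (0.72, adjusted p = 0.0425) and without 0 h replicate 3 (0.32, adjusted p = 0.0432). It also passed in a fit that corrected for GC content and length of the transcripts (0.55, adjusted p = 0.00778). At 48 h the value was 0.18 without 0 h replicate 3 (adjusted p = 0.206).

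Palb2 (ENSMUSG00000044702) encodes the bridge between BRCA1 and BRCA2 and lies on chromosome 7 (122107262 to 122132985, minus strand). It measured 50.6, 45.3 and 38.9 CPM at 0 h, 52.8, 52.7 and 56.1 CPM at 24 h, and 54.4, 58.1 and 61.8 CPM at 48 h. All 6 libraries of co-culture were above the 3 of 0 h, by a small margin. The log2 fold change was 0.27 at 24 h (SE 0.13, adjusted p = 0.172) and 0.37 at 48 h (SE 0.13, adjusted p = 0.0736). Without 0 h replicate 1 both differences passed, at 0.37 (adjusted p = 0.0444) and 0.47 (adjusted p = 0.0231). Both also passed when GC content and length were corrected for (0.33, adjusted p = 0.0156, and 0.39, adjusted p = 0.0084), and that at 48 h with library size as the only scaling (0.48, adjusted p = 0.0304) and in a fit of all 9 libraries (0.37, adjusted p = 0.0253).

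Brca2 (ENSMUSG00000041147), on chromosome 5 (150522630 to 150570329, plus strand), did not follow time. Its level was 124, 24.1 and 36.4 CPM at 0 h, 32.6, 45.7 and 68.0 CPM at 24 h, and 113, 35 and 133 CPM at 48 h. The highest library was 5.14 times the lowest at 0 h, 2.09 times at 24 h and 3.81 times at 48 h. The raw counts behind these levels ran from 485 to 2633, so counting error is small beside this spread. The SD within groups was 0.98 on the log2 scale, above that of 99.4% of 11946 genes with a mean of at least 5 CPM. No comparison called Brca2, and its intervals were wide: the log2 fold change was -0.33 at 24 h (95% interval -1.70 to 1.05, adjusted p = 0.744) and 0.60 at 48 h (-1.01 to 2.21, adjusted p = 0.559) against 0 h. Between 24 h and 48 h it was 0.93 (-0.02 to 1.88, adjusted p = 0.144). Without 0 h replicate 1 the difference at 24 h turned to 0.70 (adjusted p = 0.132) and that at 48 h passed the test at 1.63 (adjusted p = 0.0441). Without 48 h replicate 2 the difference from 24 h to 48 h passed at 1.33 (adjusted p = 0.00251). Over the fits that omit 1 library, the value ran from -0.70 to 0.70 at 24 h and from 0.23 to 1.63 at 48 h against 0 h.

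Long transcripts of low GC content, the class to which Brca2 belongs, also varied between libraries. The longest coding transcript of Brca2 has 10724 bases and 42.4% GC. Genes with a transcript of at least 6000 bases and a GC content of at most 44% numbered 477 (limits chosen after the values were seen), and their median log2 CPM about each gene's own mean was 0.46, -0.06 and -0.83 in the 0 h libraries. In the same libraries Brca2 stood at 1.13, -1.23 and -0.63. At 24 h the class stood at -0.20, 0.01 and -0.05 and Brca2 at -0.79, -0.30 and 0.27, and at 48 h the class stood at 0.32, -0.02 and 0.39 and Brca2 at 1.00, -0.69 and 1.24. Both were high in the first library of 0 h and in the first and the third of 48 h. Brca2 was low in the second library of 0 h and in the second of 48 h, where the class was near 0. In a fit with offsets for GC content and length, Brca2 had a log2 fold change of -0.28 at 24 h (adjusted p = 0.646), 0.30 at 48 h (adjusted p = 0.659) and 0.58 from 24 h to 48 h (adjusted p = 0.266), the last pair being smaller than the 0.60 and 0.93 without offsets. Brca1, with 46.2% GC, followed the order of the class in the 0 h libraries, highest in the first and lowest in the third, and Palb2, with 47.0% GC, did so over a smaller range. Whether GC content or length bears on the spread of these genes was not tested.

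**Figure D3:**
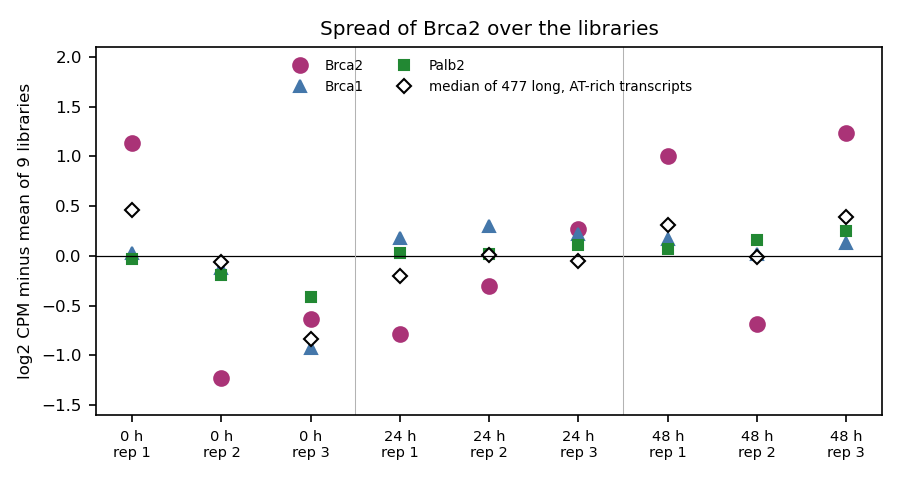
Log2 CPM minus the gene's mean over 9 libraries (y axis) for Brca2, Brca1 and Palb2, with the median of 477 long transcripts of low GC content, in each library (x axis). Brca2 reaches 1.13 in the first library of 0 h and 1.24 in the third of 48 h, and -1.23 in the second of 0 h.

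The genes whose profile over the 9 libraries lay nearest to Brca2 were the zinc finger genes Zfp942, Zfp638 and Zfp820, with root mean square differences of 0.09 to 0.10 in log2 CPM. Within a difference of 0.2, a limit chosen after the values were seen, there were 17 genes. Of the 17, 7 bear a Zfp name, or 41.2% against 2.6% of all 11946 genes. The median GC content of the 17 was 38.9% against 50.3%, and their median transcript had 7800 bases against 3136. These contrasts come from the same values as the limit and were not tested. The genes nearest to Brca1 were Nabp1, Nr3c1 and Rfc1, and those nearest to Palb2 were Cyld, Brd9 and Pus7. These likenesses describe 9 libraries and share the library differences given above.

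Rad52 (ENSMUSG00000030166), on chromosome 6 (119902698 to 119922828, plus strand), rose at 48 h. Its level was 18.2, 17.0 and 15.7 CPM at 0 h, 18.0, 21 and 19.5 CPM at 24 h, and 21.9, 26.0 and 22.7 CPM at 48 h. The 48 h libraries lay above all libraries of 0 h and 24 h, while those of 0 h and 24 h overlapped. The rise from 0 h to 48 h was 1.39-fold, a log2 fold change of 0.47 (SE 0.13, adjusted p = 0.0309). The differences from 0 h to 24 h (0.21, adjusted p = 0.276) and from 24 h to 48 h (0.26, adjusted p = 0.0858) did not pass. The call at 48 h rested on all 3 libraries of 48 h and on 0 h replicate 2: it was lost without 48 h replicate 1 (0.53, adjusted p = 0.0679), 2 (0.38, adjusted p = 0.125) or 3 (0.50, adjusted p = 0.085) and without 0 h replicate 2 (0.47, adjusted p = 0.0855). It was also lost with no filter on low counts (0.47, adjusted p = 0.0625) and with the replicate number as a block in the fit (0.47, adjusted p = 0.0904).

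Rdm1 (ENSMUSG00000010362) encodes a protein with an RNA recognition motif that resembles RAD52 in part and binds single-stranded DNA. It lies on chromosome 11 (101627195 to 101636100, plus strand), 75239 bases from Brca1 and read in the opposite direction. Its level was 11.7, 17.8 and 19.6 CPM at 0 h, 5.05, 5.82 and 6.20 CPM at 24 h, and 6.91, 7.21 and 6.83 CPM at 48 h. The lowest library of 0 h was above the highest of the other times. Rdm1 fell by 1.51 on the log2 scale at 24 h (SE 0.22, adjusted p = 0.00228) and by 1.23 at 48 h (SE 0.21, adjusted p = 0.0041), which is 2.85-fold and 2.34-fold lower. The value between 24 h and 48 h was 0.28 (SE 0.14, adjusted p = 0.178), with the libraries of 48 h all above those of 24 h. The call against 0 h held without each library in turn and under all other settings that were run. The study had already named Rdm1 as higher at 0 h from these samples, so its direction is not independent evidence.

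Within 0 h, the order of the libraries for Rdm1 was the reverse of that for most of the other genes. Of the 3 libraries of 0 h, the first was the highest for 8 of the 9 genes and the lowest for Rdm1, and the third was the lowest for 7. The same count was not made over all genes, so these numbers have no share to be set beside. They are not read as a trait of the 9 genes, since the 0 h libraries differed from each other as a whole. The transcript of Rdm1 has 55.0% GC. The median log2 CPM of 3639 genes with at least 54% GC, about each gene's own mean, was -0.21, 0.05 and 0.22 in these libraries, and Rdm1 stood at 0.44, 1.04 and 1.18. Fanca, with 54.4% GC and so within the same limit, ran in the opposite order, at -0.19, -0.22 and -0.47. In a fit with offsets for GC content and length, Rdm1 was lower by 1.49 at 24 h (adjusted p = 0.000164) and by 1.05 at 48 h (adjusted p = 0.000535), as log2 values. Whether GC content bears on the values of Rdm1 was not tested. The nearest profiles were those of Ddr1, Gnas and Itpkb, at differences of 0.13 to 0.14.

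Fanca (ENSMUSG00000032815), on chromosome 8 (123268300 to 123318576, minus strand), encodes a subunit of the core complex that attaches ubiquitin. Its level was 80.9, 79.1 and 66.7 CPM at 0 h, 111, 107 and 89.5 CPM at 24 h, and 111, 98.0 and 98.1 CPM at 48 h. All 6 libraries of co-culture were above all 3 of 0 h, and 24 h and 48 h overlapped. Fanca rose 1.37-fold at 24 h (log2 fold change 0.45, SE 0.14, adjusted p = 0.0474) and 1.35-fold at 48 h (0.44, SE 0.12, adjusted p = 0.0288). Both calls were close to the threshold. The call at 24 h was lost without 0 h replicate 2 (0.48, adjusted p = 0.102), 24 h replicate 1 (0.38, adjusted p = 0.184) or 24 h replicate 2 (0.43, adjusted p = 0.159), and with no filter on low counts (0.45, adjusted p = 0.0564). With the replicate number as a block both calls were lost, at 0.45 (adjusted p = 0.0575) for 24 h and 0.44 (adjusted p = 0.0667) for 48 h. The call at 48 h was lost without 0 h replicate 2 (0.47, adjusted p = 0.0716) and without 48 h replicate 1 (0.39, adjusted p = 0.122), 2 (0.46, adjusted p = 0.0792) or 3 (0.47, adjusted p = 0.0775). Of the exon bases of Fanca, 10.5% also belong to exons of Zfp276 on the other strand, and whether the counting used strand is not given in the sources used here. Zfp276 had 221, 264 and 263 counts at 0 h, 433, 394 and 394 at 24 h, and 383, 508 and 363 at 48 h, so it too was higher after 0 h, and its part in the values of Fanca was not tested.

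Fancb (ENSMUSG00000047757), on chromosome X (164980592 to 164997272, plus strand), encodes another core subunit, which forms a subcomplex with FAAP100 and the ubiquitin ligase FANCL. Its level was 11.3, 6.60 and 4.83 CPM at 0 h, 1.37, 1.92 and 1.85 CPM at 24 h, and 1.46, 2.34 and 2.88 CPM at 48 h. The lowest library of 0 h was above the highest of the other times, although the 0 h libraries differed among themselves 2.35-fold. The counts behind the levels were 97 to 182 at 0 h and 28 to 57 later. Fancb fell by 2.13 on the log2 scale at 24 h (SE 0.36, adjusted p = 0.00458) and by 1.76 at 48 h (SE 0.39, adjusted p = 0.0131), which is 4.37-fold and 3.38-fold lower. The call at 48 h was lost without 48 h replicate 1 (-1.53, adjusted p = 0.0535). The log2 fold change between 24 h and 48 h was 0.37 (SE 0.29, adjusted p = 0.395). The nearest profile was that of the processed pseudogene Gm13502, at a difference of 0.18, followed by Idi1 at 0.21 and Sgk3 at 0.27.

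In the libraries where Rdm1 and Fancb were lower, the sum of the genes of undifferentiated spermatogonia was also lower, at most 388 CPM against at least 1620 CPM, the stromal, myoid, Sertoli and Leydig sums were higher, and the endothelial and macrophage sums were lower. Their part in the result was not tested. In the same libraries the germ cell sum was 1077 to 2181 CPM at 0 h, 1311 to 1561 CPM at 24 h and 1402 to 1676 CPM at 48 h, so the ranges overlapped.

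Fancd2 and Fanci encode the pair of related proteins that the core complex marks with ubiquitin. Fancd2 (ENSMUSG00000034023), on chromosome 6 (113531682 to 113597017, plus strand), measured 147, 122 and 114 CPM at 0 h, 163, 163 and 152 CPM at 24 h, and 155, 159 and 161 CPM at 48 h. All 6 later libraries were above the 3 of 0 h, and the libraries of 24 h and 48 h overlapped. The log2 fold change was 0.33 at 24 h (SE 0.13, adjusted p = 0.102) and 0.31 at 48 h (SE 0.12, adjusted p = 0.102). Neither passed. Both passed without 0 h replicate 1 (0.45, adjusted p = 0.0138, and 0.42, adjusted p = 0.0133), with library size as the only scaling (0.44, adjusted p = 0.04, and 0.42, adjusted p = 0.038) and in a fit of all 9 libraries (0.32, adjusted p = 0.0403, and 0.31, adjusted p = 0.0383). With the offsets for GC content and length, 24 h passed (0.32, adjusted p = 0.0189) and 48 h did not (0.22, adjusted p = 0.0728). From 24 h to 48 h the value was -0.02 (95% interval -0.15 to 0.11).

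Fanci (ENSMUSG00000039187), on chromosome 7 (79391929 to 79450264, plus strand), measured 62.4, 43.8 and 39.3 CPM at 0 h, 57.1, 54.2 and 53.2 CPM at 24 h, and 60.1, 65.2 and 69.6 CPM at 48 h. The first library of 0 h lay within the later ones, and the 48 h libraries were all above those of 24 h. The log2 fold change was 0.19 at 24 h (SE 0.19, adjusted p = 0.518) and 0.42 at 48 h (SE 0.19, adjusted p = 0.135). From 24 h to 48 h it was 0.23 (SE 0.08, adjusted p = 0.0577), and DESeq2 called this difference at 0.25 (adjusted p = 0.0491). Without 0 h replicate 1, Fanci passed at 24 h (0.42, adjusted p = 0.0279) and at 48 h (0.65, adjusted p = 0.00599), and 48 h also passed with the offsets for GC content and length (0.44, adjusted p = 0.0267). Without 0 h replicate 3 the value at 24 h was 0.09, and without 0 h replicate 2 it was 0.12. Of its exon bases, 16.0% also belong to exons of Polg on the other strand, which had 2027 to 3332 counts per library against 789 to 1501 for Fanci.

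Profiles over the 9 libraries were then compared among the genes. Among all pairs, Palb2 and Fancd2 were closest, with a root mean square difference of 0.08 in log2 CPM over 9 libraries. The farthest pair was Brca2 and Fancb, at 1.27. The measure depends on how much each gene varies. The root mean square about the gene's own mean was 0.19 for Palb2, 0.18 for Fancd2, 0.88 for Brca2 and 0.96 for Fancb. Within the limit of 0.2 used above lay 1950 of 11946 genes for Palb2 and 1999 for Fancd2. Fanca and Fancb, both of the core complex, differed by 1.15, and Brca1 and its partner Brca2 by 0.83. Rdm1 and Fancb were at 0.58. The genes nearest to Fancd2 were Pole, Ubqln2 and Vps33b, each at a difference of 0.05. Fanca was nearest to Zzef1, Ubr2 and Dock3, Fanci to Exoc2, Tbck and Agfg1, and Rad52 to Utp18, Tmem135 and Banp.

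Levels of different genes were compared per length, as FPKM over the union of exons. In FPKM (mean ± SD, n = 3), the order at 0 h was Fancd2 16.1 ± 2.17, Brca1 13.4 ± 4.25, Rdm1 10.4 ± 2.61, Fanca 8.63 ± 0.881, Fanci 8.40 ± 2.12, Palb2 6.12 ± 0.795, Brca2 4.50 ± 3.97, Rad52 2.95 ± 0.214 and Fancb 2.54 ± 1.13. All 8 pairs of neighbours in this order overlapped in their libraries. At 24 h the FPKM levels were Fancd2 20.1 ± 0.762, Brca1 19.2 ± 0.831, Fanca 11.7 ± 1.31, Fanci 9.49 ± 0.349, Palb2 7.34 ± 0.261, Rdm1 3.61 ± 0.370, Brca2 3.57 ± 1.31, Rad52 3.39 ± 0.260 and Fancb 0.576 ± 0.10. Here 3 of 8 neighbouring pairs overlapped: Fancd2 with Brca1, Rdm1 with Brca2, and Brca2 with Rad52. At 48 h the FPKM levels were Fancd2 20.0 ± 0.398, Brca1 17.6 ± 0.916, Fanca 11.7 ± 0.845, Fanci 11.2 ± 0.823, Palb2 7.91 ± 0.505, Brca2 6.87 ± 3.80, Rdm1 4.43 ± 0.127, Rad52 4.09 ± 0.382 and Fancb 0.748 ± 0.240. The 4 pairs that overlapped were Fanca with Fanci, Palb2 with Brca2, Brca2 with Rdm1, and Rdm1 with Rad52. Rdm1 thus went from rank 3 at 0 h to rank 6 at 24 h and rank 7 at 48 h. With the longest coding transcript as length, Rdm1 held ranks 4, 7 and 8, Fancd2 stayed at rank 1 and Fancb at rank 9 in all groups, and at 48 h Fanca took rank 2 and Brca1 rank 3.

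**Figure D4:**
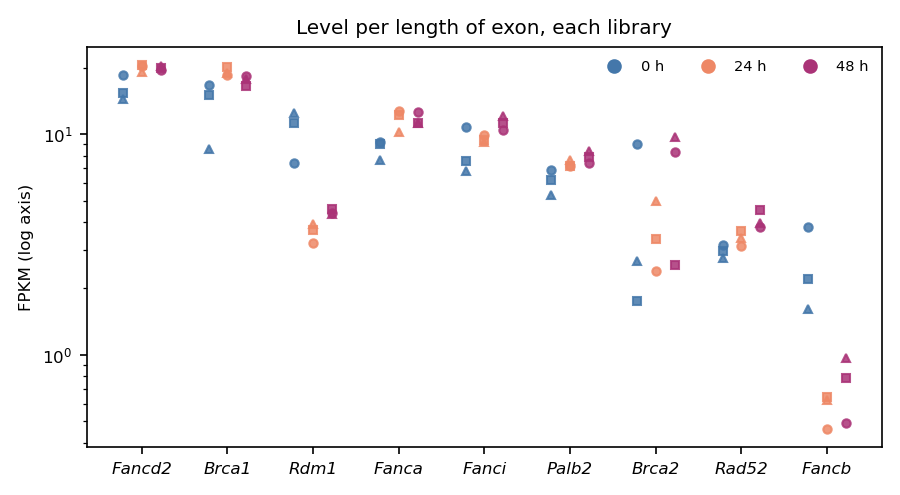
FPKM on a log axis (y axis) for the 9 genes (x axis, ordered by their mean at 0 h), with a point for each library and a colour for each time. Rdm1 and Fancb drop after 0 h to means of 3.61 and 0.576 FPKM at 24 h, while the means of Fancd2 and Brca1 are the highest at all 3 times on this length.

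The other genes of these pathways were described from lists of genes, and their counts were set beside the share of all genes called higher (11.4% at 24 h and 13.0% at 48 h against 0 h, 8.61% from 24 h to 48 h) and lower (14.2%, 18.5% and 12.7%). Of 12 further genes of the Fanconi core complex and its partners, 4 were called at 24 h, all higher, while at 48 h 5 were called higher and 2 lower, and from 24 h to 48 h 3 higher and 2 lower. Their median log2 fold change was 0.29 and 0.53. Faap24, a DNA-binding partner of FANCM, rose by 1.11 at 24 h (adjusted p = 0.00893) and 1.46 at 48 h (adjusted p = 0.00109). Faap100, the partner of FANCB and FANCL in their subcomplex, rose by 1.04 (adjusted p = 0.000698) and 1.13 (adjusted p = 0.000355), so it moved opposite to Fancb. It measured 25.9, 25.9 and 29.8 CPM at 0 h, 57.2, 53.1 and 55.6 CPM at 24 h, and 59.8, 61.0 and 57.4 CPM at 48 h, with no overlap between 0 h and later. Fancg, the partner subunit of FANCA, rose by 0.72 (adjusted p = 0.0025) and 0.49 (adjusted p = 0.00976). Fancm, the helicase that anchors the core complex on DNA, had values of 0.45 (adjusted p = 0.414) and 0.78 (adjusted p = 0.151), and Ube2t, the enzyme that hands ubiquitin to FANCL, had -0.04 and -0.08. At 48 h Fance (-0.59, adjusted p = 0.0254) and Cenpx (-0.73, adjusted p = 0.0288) fell. Leaving out 1 library at a time gave 3 to 5 calls at 24 h. At 48 h it gave 3 calls when 48 h replicate 1 or 3 was absent, 4 when 48 h replicate 2 or 0 h replicate 2 was, and 9 when 0 h replicate 1 was. Between the later times it gave 1 (24 h replicate 1, 48 h replicate 1 or 48 h replicate 3 absent) to 4.

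Of 9 genes that act after the ubiquitin step, 2 were higher at 24 h and 3 at 48 h against 0 h, and none was lower, while 1 was lower from 24 h to 48 h. Mad2l2, a subunit of the translesion polymerase zeta and of shieldin, rose by 1.21 (adjusted p = 0.000655) and 0.84 (adjusted p = 0.00422). Rev1, another translesion polymerase, rose by 0.73 (adjusted p = 0.038) and 0.94 (adjusted p = 0.0129), and 26.6% of its exon bases overlap Eif5b. Usp1, which removes ubiquitin from FANCD2, had values of 0.05 and 0.11 and was not called. Of the windows of 75 bases along its transcript, 46.1% are shared with Gm5841. The number called at 24 h was 1 when 0 h replicate 2 or whichever library of 24 h was left out, and that at 48 h was 1 without 48 h replicate 3.

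**Figure D5:**
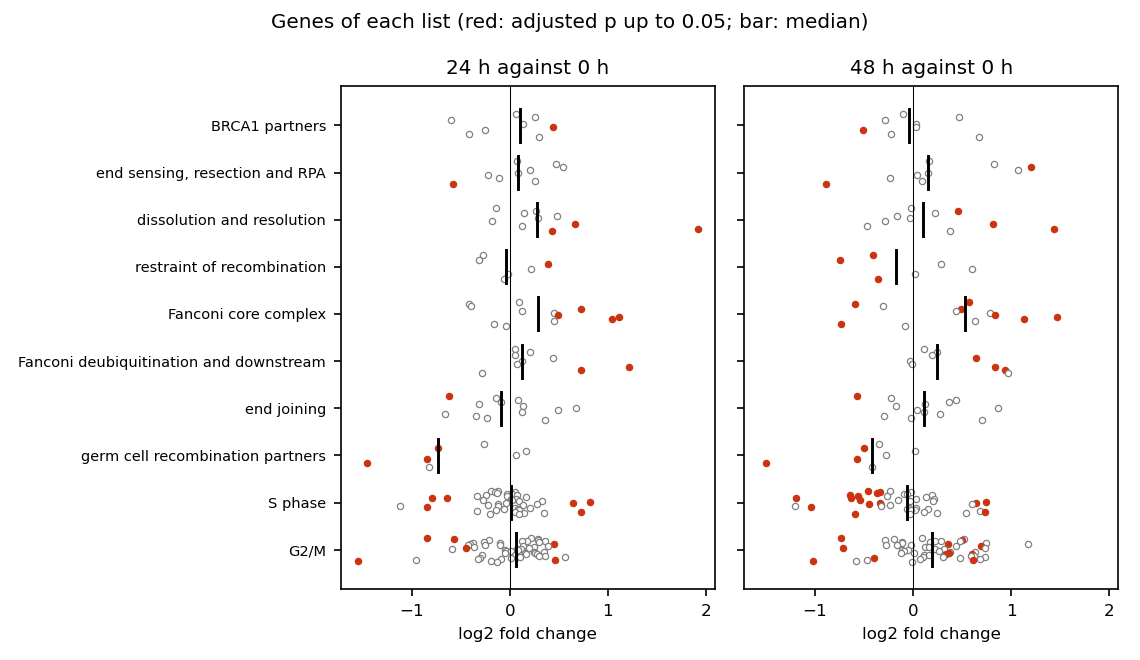
Log2 fold change against 0 h (x axis) for genes of the lists of repair, germ cell and cell cycle genes (rows), with called genes in red and a bar at the median of the list. The Fanconi core list has its median at 0.29 at 24 h and 0.53 at 48 h, and the germ cell recombination list at -0.73 and -0.41.

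Of 8 BRCA1 partners, 1 was higher at 24 h, 1 lower at 48 h and 1 lower from 24 h to 48 h. Bard1, the binding partner that stabilises BRCA1, had values of 0.07 (adjusted p = 0.795) and -0.10 (adjusted p = 0.62), and the called genes were Babam1 at 24 h (0.44, adjusted p = 0.0474) and Babam2 at 48 h (-0.51, adjusted p = 0.0133), both of the BRCA1-A complex. Single libraries decided these counts: the list had no call at 24 h when 0 h replicate 1 or 2 or whichever library of 24 h was left out, and none at 48 h when 48 h replicate 1 or 2 was. It had 2 at 24 h with 0 h replicate 3 absent, 3 at 48 h with 0 h replicate 1 absent, and 3 between the later times with 48 h replicate 2 absent.

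Of 9 genes of end sensing, resection and RPA, 1 fell at 24 h, a pair moved in opposite directions at 48 h, and 3 were higher from 24 h to 48 h. Rpa3, the smallest subunit of the single-strand binding complex, fell by 0.57 at 24 h (adjusted p = 0.0243) and by 0.89 at 48 h (adjusted p = 0.00198). Of its transcript windows, 16.7% are shared with Gm6195. Nbn, of the MRE11 complex, had 0.54 at 24 h (adjusted p = 0.188) and rose by 1.21 at 48 h (adjusted p = 0.00951). Exo1, a nuclease of resection, was not called, with 0.09 and 0.16. Of 10 genes of dissolution and resolution, 3 were higher at 24 h and 3 at 48 h against 0 h with none lower, and 3 were lower from 24 h to 48 h. Slx1b, a structure-specific nuclease, rose by 1.92 (adjusted p = 0.000146) and 1.43 (adjusted p = 0.0008), with 16.4% of its exon bases shared with Gm6939 and Bola2. Eme1, the partner of MUS81, rose by 0.66 (adjusted p = 0.0103) and 0.81 (adjusted p = 0.00156), with 10.7% of its exon bases shared with Lrrc59 and Mrpl27. The helicase gene Blm was not called, with -0.14 and -0.02. Of 6 genes that restrain recombination, 1 was higher at 24 h, 3 were lower at 48 h and 2 lower from 24 h to 48 h. Recql5 rose at 24 h (0.39, adjusted p = 0.0325), and Rtel1, a helicase that takes recombination intermediates apart, fell by 0.75 at 48 h (adjusted p = 0.00111). Among 13 genes of end joining, the competing pathway, Xrcc5 was called in both comparisons, at -0.62 (adjusted p = 0.00982) and -0.57 (adjusted p = 0.011), and Trp53bp1, which opposes resection, was not, at 0.13 and 0.12. Of the exon bases of Trp53bp1, 15.0% overlap Tubgcp4. No end joining gene was called from 24 h to 48 h by edgeR, and 5 were without 48 h replicate 2. With 1 library left out, the end sensing list had 0 to 3 calls at 24 h and 2 to 4 at 48 h, the resolution list 1 to 5 and 2 to 3, the restraint list 0 to 2 and 1 to 4, and the end joining list 0 to 2 and 0 to 5. At 24 h the lowest counts came with whichever library of 24 h absent for end sensing, with 0 h replicate 2 or 24 h replicate 1 or 3 absent for resolution, with 0 h replicate 2 or whichever library of 24 h absent for restraint, and with 24 h replicate 2 absent for end joining. At 48 h they came with 0 h replicate 2 or whichever library of 48 h absent for restraint and whichever library of 48 h absent for end joining. Counts above those of the full fit came when 0 h replicate 1 or 3 was absent.

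Of 7 germ cell partners of the recombination proteins, 3 were lower in each comparison with 0 h and 1 from 24 h to 48 h, with a median of -0.73 at 24 h and -0.41 at 48 h. The list includes Dmc1, which the study described from a heat map as rising up to 48 h. A heat map is another measure than the fold changes used here. The log2 fold changes in the list at 48 h against 0 h ran from -1.50 to 0.02, and that of Dmc1 is not given by itself. Brme1, whose product binds HSF2BP, fell by 0.73 (adjusted p = 0.0139) and by 0.50 (adjusted p = 0.0392). Mnd1, a cofactor of strand exchange, fell by 0.85 (adjusted p = 0.0116) and by 0.57 (adjusted p = 0.0299), with 57.6% of its transcript windows shared with the pseudogene Mnd1-ps. Hsf2bp, which binds BRCA2 in germ cells, had -0.26 and -0.35 and was not called. The number called was 0 without 24 h replicate 1 at 24 h, and at 48 h it was 0 when 0 h replicate 2 or whichever library of 48 h was left out.

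Genes of the cell cycle were set beside these, since the transcripts of many repair genes are known to peak around S phase. The summed level of 43 S phase genes was 7545 to 8509 CPM at 0 h, 7001 to 7472 CPM at 24 h and 6536 to 6899 CPM at 48 h, so the 3 groups did not overlap. The summed level of the 9 repair genes was 409 to 648, 598 to 623 and 592 to 709 CPM. Of the S phase genes, 3 were called up and 3 down at 24 h, and 13 of the 16 called at 48 h were lower, with 7 called without 48 h replicate 1. From 24 h to 48 h 12 were lower and none higher, with 3 called without 48 h replicate 1. The summed level of 54 G2/M genes was 6639 to 8485, 7054 to 7816 and 7706 to 9175 CPM at the 3 times, with overlap between them. Of these, 2 were higher and 4 lower at 24 h, 7 against 4 at 48 h, and 12 against 3 from 24 h to 48 h. The G2/M calls ran from 1 to 11, 4 to 20 and 4 to 22 with 1 library left out. Whether the share of cells in S phase bears on the 9 genes was not tested.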

How the data were processed

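RNA of 9 EGFP-SSC libraries was sequenced on an Illumina NovaSeq instrument. The authors deposited raw counts per Ensembl gene, 1 table per library, and the submitters' processing notes name fastp, HISAT2, featureCounts and the build GRCm38. Versions, the annotation release and the strand setting are not given in the sources used here. Symbols and positions came from GENCODE M21 for 45229 of 46078 identifiers, and the rest took at most 0.121% of a library's counts. Each pair of time points was fitted alone, on its 6 libraries, with edgeR 4.0.16 (filterByExpr, TMM, quasi-likelihood test, two-sided, Benjamini-Hochberg adjustment over all genes tested), so that every adjusted p is from edgeR unless DESeq2 1.42.0 is named. SE is the log2 fold change over the root of F. FPKM used the union of exons. The script was tested on simulated data. Named genes were the 9 members, called or well-known genes of each list, and the 3 nearest profiles among genes with a mean of at least 5 CPM. The members and lists were chosen with earlier results of these data known. The results of 1 list of pathway genes are not reported here.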

Additional observations from a re-analysis of the deposited data

How the results depend on the processing

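Of the 9 genes, 3 were called at 24 h against 0 h, 4 at 48 h against 0 h and 0 from 24 h to 48 h. At 24 h the number was 2 with no filter and under the replicate block, both of which lost Fanca (adjusted p = 0.0564 and 0.0575), 6 with offsets for GC content and length, also with the replicate block added, and 2 to 7 with 1 library left out, 7 of them without 0 h replicate 1. Fancd2 was also called at 24 h with library size alone and in a fit of all 9 libraries. At 48 h the number was 2 under the replicate block, which lost Rad52 and Fanca (adjusted p = 0.0904 and 0.0667). With 1 library left out it ran from 1 without 48 h replicate 1 to 8 without 0 h replicate 1. Palb2 and Fancd2 were also called at 48 h with library size alone and in a fit of all 9 libraries. With the offsets, with or without the block, Palb2 and Fanci were also called at 48 h, and with no filter Rad52 was lost. From 24 h to 48 h the number was 1 with DESeq2 and with at least 10 counts in every library (Fanci), and with no filter (Brca2). It was also 1 with the offsets (Brca1), with or without the block, and 0 to 1 with 1 library left out. With no filter the adjusted p of Brca2 was 1.02e-20, against 0.144 with the filter, though its libraries of 24 h and 48 h overlapped. The cause of this gap was not tested, and the calls of Fanca and Rad52 lost with no filter come from the same setting. The correlation of deviations was -0.28 to 0.196 between samples of the same number and -0.392 to 0.38 between samples of different numbers. These values show no pairing by number, but with 3 libraries a group they cannot exclude it. Under the replicate block Brca2 at 24 h turned from -0.33 to 0.0381, and with 1 library left out it ran from -0.6964 to 0.7023. For Fanca from 24 h to 48 h, -0.01 became 0.0023 with DESeq2 size factors, 1e-04 with DESeq2, 0.0111 with at least 10 counts, 0.1114 with the offsets and 0.1128 with the offsets and the block, and -0.0855 to 0.0492 with 1 library left out. Fancd2 from 24 h to 48 h became 0.0047 with at least 10 counts and -0.0347 to 0.0167 with 1 library left out. None of these sign changes was in a comparison that called the gene, and the cause was not tested. With library size as the only scaling, the median of all genes at 24 h and 48 h was 0.12 and 0.13, and the share of higher calls moved from 44.5% to 57.1% and from 41.2% to 52.8%. Counts for 48 h against 24 h fell from 3732 to 1043 genes in a fit of all 9 libraries. Depth limits Fancb most, with 28 to 57 counts in the later libraries, and 3 libraries a group limit all 9 genes.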
